A study of Mus musculus with 18 samples.

Results

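The tumour necrosis factor (TNF) superfamily genes described here were Tnf, Tnfsf9, Tnfsf10, Tnfsf13b and Tnfsf15, which encode 5 ligands, and Tnfrsf1a, Tnfrsf1b and Tnfrsf9, which encode 3 receptors. They were taken by gene symbol from the deposited count table, where they were 8 of 55573 genes, and all 8 passed the filter on low counts among 13443 genes tested. RNA was sequenced from macrophages of C57BL/6 mice, collected by peritoneal lavage and sorted as CD11b and F4/80 positive cells. The groups were LPS + LPS in Zeb1∆M and Zeb1WT macrophages (an initial and a later dose of lipopolysaccharide, the endotoxin of Gram-negative bacteria), Metformin + LPS in Zeb1∆M and Zeb1WT (pretreatment with the antidiabetic drug Metformin before a single dose), and LPS in Zeb1∆M and Zeb1WT (a single dose after vehicle), with 3 libraries in each group. Zeb1WT mice carried the floxed allele Zeb1 f/f without a recombinase, and Zeb1∆M mice carried the same allele with LysM-Cre, a recombinase inserted at the Lyz2 locus that acts in myeloid cells, neutrophils included. Every group had received LPS, and an untreated group was not analysed here. Each sample pooled 2 to 3 mice, whose age the labels do not give.

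TNF superfamily ligands are membrane proteins that assemble as trimers, many of which can be cleaved from the surface, and they act by clustering their receptors. Receptors with a death domain can start cell death, and those without it recruit TRAF adaptors, which drive NF-κB and MAP kinase signalling. In macrophages, LPS induces Tnf within hours, and a second exposure is the standard model of endotoxin tolerance, in which part of that response is blunted.

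In the GRCm38 annotation (GENCODE M21), Tnf (ENSMUSG00000024401.14) at chr17:35199381-35202007 on the minus strand and Tnfsf9 (ENSMUSG00000035678.8) at chr17:57105325-57107757 on the plus strand share a chromosome. The other ligand genes are Tnfsf10 (ENSMUSG00000039304.11) at chr3:27317028-27342427 and Tnfsf13b (ENSMUSG00000031497.9) at chr8:10006467-10039072, both on the plus strand, and Tnfsf15 (ENSMUSG00000050395.8) at chr4:63727084-63745113 on the minus strand. The receptor genes are Tnfrsf1a (ENSMUSG00000030341.17) at chr6:125349362-125362484 on the plus strand, Tnfrsf1b (ENSMUSG00000028599.10) at chr4:145213463-145246870 on the minus strand and Tnfrsf9 (ENSMUSG00000028965.13) at chr4:150914562-150946102 on the plus strand. Counts were summed over each gene, so levels refer to whole genes and not to single exons or transcripts.

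The library totals ranged between 14053706 and 30570439 counts, and levels are given as CPM, each count relative to its library total after scaling by the TMM method. The TMM factors ranged between 1.42 and 1.564 in LPS + LPS, between 0.4454 and 0.8781 in Metformin + LPS and between 0.8666 and 1.065 in LPS libraries, so each treatment comparison depended on this scaling. With library totals alone, the log2 fold change of the median gene was 0.59 (Zeb1∆M) and 0.73 (Zeb1WT) for LPS + LPS over LPS, -0.27 (Zeb1∆M) and -0.74 (Zeb1WT) for Metformin + LPS over LPS, and 0.60 for Zeb1∆M over Zeb1WT in Metformin + LPS. In the library codes of the count table, all 6 Metformin + LPS libraries shared a prefix that differed from that of the other 12, so pretreatment and library set cannot be told apart. These 6 libraries also held 4.24% to 14% of counts in ribosomal RNA-like genes and 1.19% to 2.79% in mitochondrial genes, against 0.287% to 2.29% and 0.513% to 1.12% in the other 12. The targeted gene Zeb1 was at 2.30, 3.01 and 1.38 CPM in Zeb1∆M LPS libraries, against 6.41, 6.69 and 7.21 CPM in Zeb1WT LPS libraries. It was lower in Zeb1∆M after Metformin + LPS as well (log2 fold change -1.55, SE 0.35, adjusted p = 0.012, edgeR), but in LPS + LPS the genotypes overlapped at 0.738 to 0.925 against 0.911 to 2.52 CPM.

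Tnf, the founding cytokine of the family and a principal mediator of the acute response to endotoxin, was lower in Zeb1∆M than in Zeb1WT macrophages after LPS + LPS and, on TMM scaling, after Metformin + LPS. In LPS + LPS, Tnf was at 63.5, 49.8 and 55.6 CPM in Zeb1∆M, against 145, 122 and 88.6 CPM in Zeb1WT. In Metformin + LPS it was at 103, 98.5 and 116 CPM in Zeb1∆M, against 167, 183 and 201 CPM in Zeb1WT. In LPS it was at 56.7, 75.3 and 78.8 CPM in Zeb1∆M, against 114, 134 and 111 CPM in Zeb1WT. No Zeb1∆M library reached its Zeb1WT counterparts under any treatment on this scaling, although with library totals alone the Metformin + LPS genotypes overlapped at 83.1 to 102 against 89.5 to 130 CPM. The log2 fold change of Zeb1∆M over Zeb1WT was -1.07 (SE 0.19, adjusted p = 0.01, edgeR quasi-likelihood test over all genes) in LPS + LPS and -0.80 (SE 0.19, adjusted p = 0.016) in Metformin + LPS. With library totals alone these were -1.04 (adjusted p = 0.028) and -0.21 (adjusted p = 0.47), where the median gene was at 0.0027 and 0.60. In LPS the value was of like size, at -0.77 (SE 0.19), but missed the threshold (adjusted p = 0.053). In LPS + LPS, Tnf was the only member called, where 0.216% of all tested genes were called lower in Zeb1∆M, and without replicate 1 of Zeb1WT LPS + LPS, the highest of that group, the value was -0.90 (adjusted p = 0.018). In Metformin + LPS the call was lost without replicate 1 (-0.80, adjusted p = 0.068) or 2 (-0.77, adjusted p = 0.072) of Zeb1∆M, or replicate 3 of Zeb1WT (-0.74, adjusted p = 0.059), and in LPS + LPS without replicate 2 (-0.99, adjusted p = 0.098) or 3 (-1.06, adjusted p = 0.055) of Zeb1∆M.

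**Figure D1:**
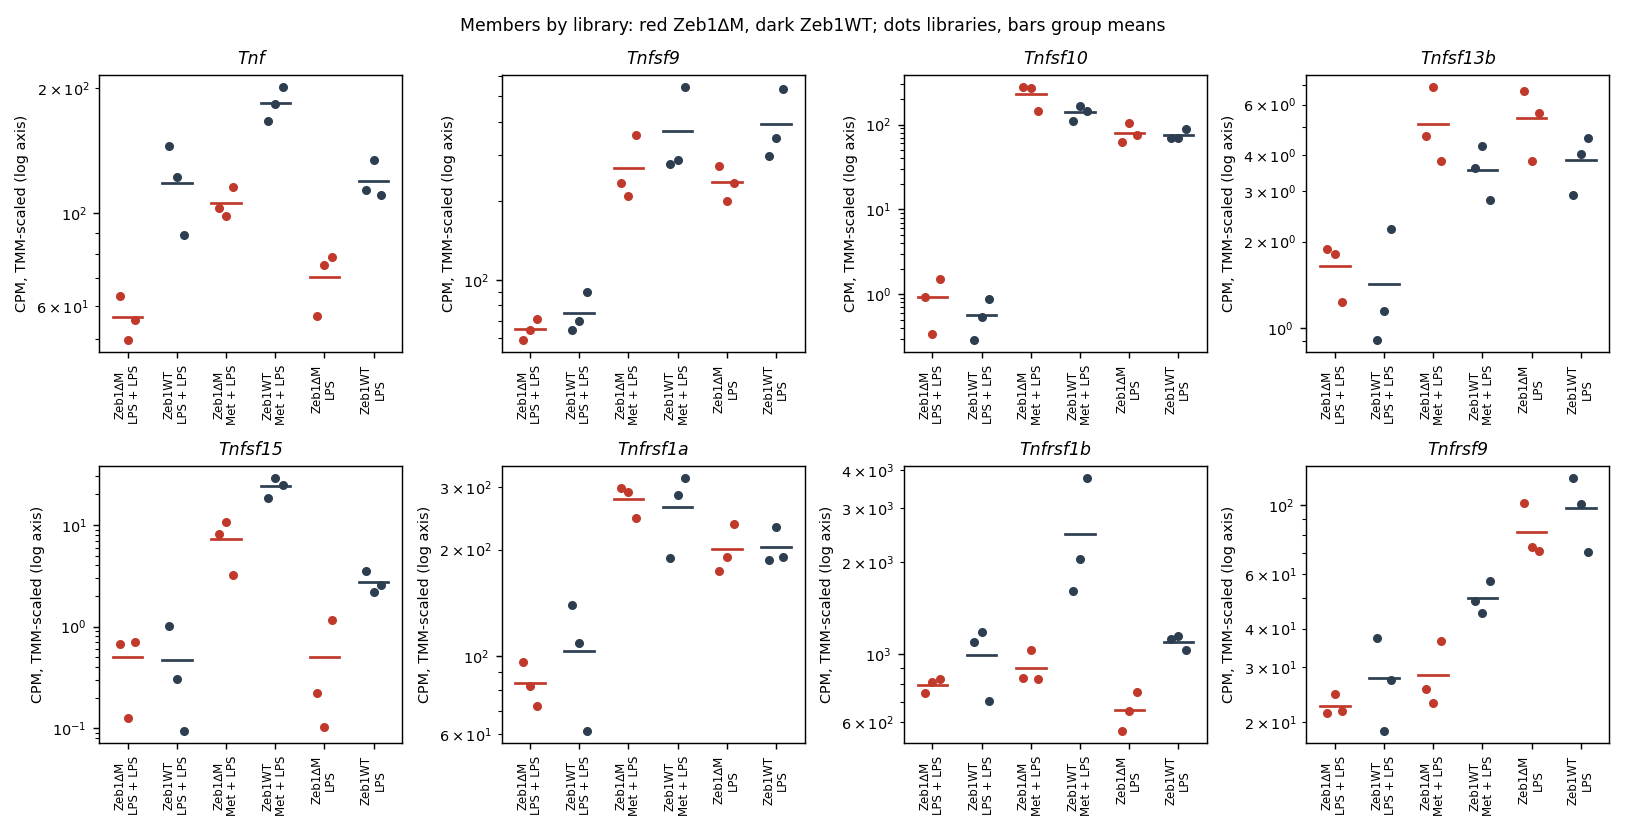
CPM (log axis) of the 8 genes in each library, with the groups along the horizontal axis, Zeb1∆M in red, Zeb1WT in dark grey and bars at the group means of 3 libraries. The Zeb1∆M libraries lay below the Zeb1WT libraries for Tnf in each treatment, and Tnfsf10 was at or under 1.51 CPM in all LPS + LPS libraries.

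Ordered by mean level, Tnf was highest in Zeb1WT Metformin + LPS at 184 ± 17 CPM (SD, n = 3), above all libraries of the next group. Zeb1WT LPS, Zeb1WT LPS + LPS and Zeb1∆M Metformin + LPS followed, neighbours overlapping among these 3. Zeb1∆M LPS at 70.3 ± 11.9 CPM and Zeb1∆M LPS + LPS at 56.3 ± 6.89 CPM came last, below them, and overlapped each other. The genotype difference of Tnf was not shown to depend on the treatment: the interaction with the second LPS dose was -0.31 (SE 0.26, adjusted p = 0.9) and that with Metformin was -0.03 (SE 0.26, adjusted p = 0.98), which was 0.46 (adjusted p = 0.41) with library totals alone. Across the 18 libraries, the genes nearest to Tnf in pattern were Tsix (Pearson r = 0.893 of log2 CPM), Il1b (r = 0.881), another cytokine induced by LPS, and H3f3a (r = 0.875), among 6450 genes compared. Tsix is antisense to Xist, and whether strand was used in counting is not given in the sources used here.

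The promoters of 3 members are shown because these genes carried the clearest differences: Tnf and Tnfrsf1b between genotypes, and Tnfsf10 between LPS + LPS and LPS. They are RefSeq sequences on GRCm38.p6, 250 bases before to 50 after the annotated start, printed 5′ to 3′ on the gene's strand. Capitals mark matches, on either strand, to the ZEB E-box CACCTG, which reads CAGGTG on the other strand, or to the core of the interferon-stimulated response element.
Tnf, chr17:35201958-35202257, minus strand: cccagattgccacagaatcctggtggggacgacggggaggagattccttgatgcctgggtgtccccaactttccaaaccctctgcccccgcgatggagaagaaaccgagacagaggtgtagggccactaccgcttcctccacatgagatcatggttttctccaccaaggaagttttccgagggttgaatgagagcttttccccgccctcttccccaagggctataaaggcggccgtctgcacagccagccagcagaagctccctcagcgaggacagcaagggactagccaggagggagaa
Tnfsf10, chr3:27316827-27317126, plus strand: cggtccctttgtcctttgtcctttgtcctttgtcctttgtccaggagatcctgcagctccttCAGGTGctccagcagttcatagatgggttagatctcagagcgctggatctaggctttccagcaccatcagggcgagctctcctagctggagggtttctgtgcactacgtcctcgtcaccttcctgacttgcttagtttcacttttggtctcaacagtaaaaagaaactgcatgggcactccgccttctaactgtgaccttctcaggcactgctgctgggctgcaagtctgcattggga
Tnfrsf1b, chr4:145246821-145247120, minus strand: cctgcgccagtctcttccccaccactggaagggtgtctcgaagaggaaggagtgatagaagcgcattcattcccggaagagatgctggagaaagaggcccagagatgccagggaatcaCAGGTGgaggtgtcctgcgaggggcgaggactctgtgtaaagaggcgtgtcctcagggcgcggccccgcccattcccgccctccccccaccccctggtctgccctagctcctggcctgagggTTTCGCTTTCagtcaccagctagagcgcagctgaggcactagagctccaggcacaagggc
The Tnf window held no match to either motif or to the NF-κB site consensus. The E-box lay 188 bases before the start of Tnfsf10 and 132 bases before that of Tnfrsf1b, whose interferon-response core ended at the base before the start and began 10 bases before it. In 32851 promoters of this length, 20.2% held CACCTG, 3.44% held the interferon-response core and 11.2% held the NF-κB consensus. Of the 9 promoters found for 7 members (none for Tnfsf9 was used here), 3 held CACCTG, with the other in Tnfrsf9, 2 held the interferon-response core, with the other in Tnfsf13b, and 1, at the second start of Tnfrsf9, held overlapping NF-κB matches. These matches describe letters only.

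The TNF receptors differed from each other. Tnfrsf1b encodes TNF receptor 2, which lacks a death domain and is found mainly on immune and endothelial cells, and Tnfrsf1a encodes the widely expressed TNF receptor 1, which has a death domain. In Metformin + LPS, Tnfrsf1b was at 837, 1030 and 833 CPM in Zeb1∆M, against 1610, 2050 and 3750 CPM in Zeb1WT. After a single dose, its level was 562, 652 and 753 CPM in Zeb1∆M, against 1120, 1150 and 1030 CPM in Zeb1WT. In LPS + LPS it was at 746, 812 and 827 CPM in Zeb1∆M, against 1100, 1180 and 706 CPM in Zeb1WT. The genotypes were thus apart in Metformin + LPS and LPS and overlapped in LPS + LPS. Tnfrsf1b was lower in Zeb1∆M after Metformin + LPS (log2 fold change -1.46, SE 0.27, adjusted p = 0.0038), also with library totals alone (-0.81, adjusted p = 0.017), whereas in LPS (-0.75, SE 0.26, adjusted p = 0.19) and LPS + LPS (-0.33, SE 0.26, adjusted p = 0.7) the test was not passed. The genotype by Metformin interaction of Tnfrsf1b was -0.71 (SE 0.37, adjusted p = 0.42). Leaving out any 1 of the 6 Metformin + LPS libraries kept the Tnfrsf1b call between genotypes, at -1.71 to -1.04.

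Tnfrsf1a differed little between genotypes. It was at 96.2, 82.4 and 72 CPM in Zeb1∆M LPS + LPS, against 139, 109 and 61.3 CPM in Zeb1WT LPS + LPS. In Metformin + LPS it was at 299, 291 and 246 CPM in Zeb1∆M, against 189, 286 and 318 CPM in Zeb1WT. With LPS alone it was at 174, 190 and 237 CPM in Zeb1∆M, against 187, 232 and 191 CPM in Zeb1WT. On TMM scaling the genotypes overlapped under each treatment, and the log2 fold changes were -0.31 (SE 0.25, adjusted p = 0.72), 0.08 (SE 0.25, adjusted p = 0.9) and -0.02 (SE 0.25, adjusted p = 0.99) in LPS + LPS, Metformin + LPS and LPS, the last of which was 0.08 with library totals alone. With library totals the Metformin + LPS value was 0.66 (adjusted p = 0.062), and the Zeb1∆M libraries lay above the Zeb1WT libraries. Between treatments, the LPS + LPS libraries lay below the LPS libraries in both genotypes on TMM scaling, and in Zeb1∆M only with library totals alone.

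Because both receptors were counted in the same library, the ratio of Tnfrsf1b to Tnfrsf1a counts needs no scaling between libraries. In Metformin + LPS this ratio was 2.8, 3.53 and 3.38 in Zeb1∆M, against 8.5, 7.18 and 11.8 in Zeb1WT. In LPS it was 3.23, 3.44 and 3.18 in Zeb1∆M, against 5.99, 4.94 and 5.42 in Zeb1WT. In LPS + LPS it was 7.76, 9.85 and 11.5 in Zeb1∆M, against 7.94, 10.8 and 11.5 in Zeb1WT. The Zeb1∆M ratio was therefore below every Zeb1WT value in Metformin + LPS and LPS, by 2.78-fold and 1.66-fold on the geometric mean, and overlapped it in LPS + LPS. For both non-overlapping genotype comparisons the exact two-sided permutation p was 0.1, the smallest that 3 against 3 libraries allow (0.14 after Benjamini-Hochberg adjustment over 7 comparisons), so the design could not reach 0.05. Against LPS, the ratio in LPS + LPS was 2.92-fold higher in Zeb1∆M and 1.83-fold higher in Zeb1WT, without overlap in either (exact p = 0.1 each). In Metformin + LPS it was 1.65-fold that in LPS in Zeb1WT, without overlap (exact permutation p = 0.1). In Zeb1∆M it was 0.981-fold, with overlap (exact permutation p = 0.9). A ratio shows that the receptors differed unequally, not which of them moved.

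**Figure D2:**
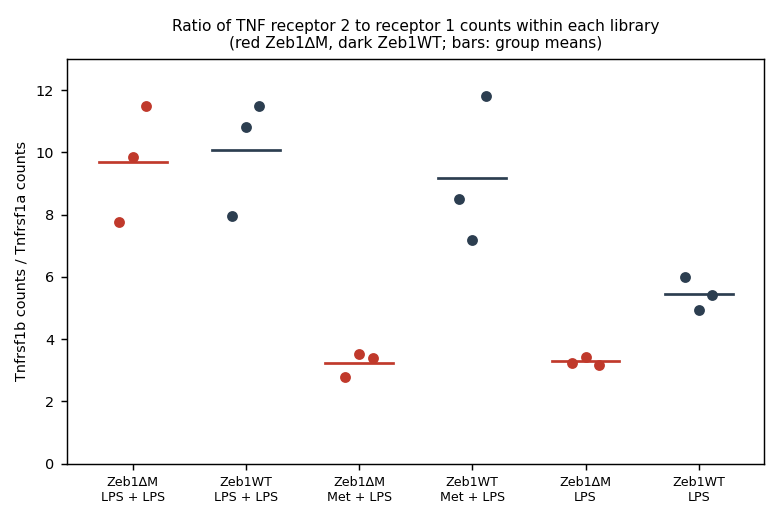
Ratio of Tnfrsf1b to Tnfrsf1a counts in each library (linear axis from 0), with Zeb1∆M in red, Zeb1WT in dark grey and bars at the means of 3 libraries. In Metformin + LPS the Zeb1∆M ratios of 2.8 to 3.53 lay below the Zeb1WT ratios of 7.18 to 11.8, and in LPS + LPS the genotypes overlapped.

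Tnfsf10 encodes TRAIL, a death ligand whose gene is induced by interferons. It had few counts left after the second dose of LPS. In LPS + LPS, Tnfsf10 had 28, 8 and 32 counts in Zeb1∆M libraries and 8, 14 and 28 counts in Zeb1WT libraries, which were 0.939, 0.337 and 1.51 CPM and 0.292, 0.534 and 0.877 CPM. After LPS the gene was at 62.3, 103 and 75.9 CPM in Zeb1∆M and at 69.7, 69.6 and 88.1 CPM in Zeb1WT. The second dose thus separated the libraries fully in both genotypes. On the log2 scale, Tnfsf10 fell by 6.44 (SE 0.44, adjusted p = 1.1e-08) in Zeb1∆M and fell by 7.02 (SE 0.46, adjusted p = 3.4e-09) in Zeb1WT, or 86.9-fold and 130-fold (-5.87 and -6.38 with library totals alone). In Metformin + LPS, Tnfsf10 was at 276, 269 and 144 CPM in Zeb1∆M, against 111, 167 and 144 CPM in Zeb1WT. Against LPS it rose after Metformin in Zeb1∆M (log2 fold change 1.52, SE 0.34, adjusted p = 0.0036), and in Zeb1WT the value was 0.89 (SE 0.33, adjusted p = 0.058), which was 0.20 (adjusted p = 0.69) with library totals alone, while it was called with median-of-ratios scaling (0.93, adjusted p = 0.049), DESeq2 (0.93, adjusted p = 0.026), no filter (0.90, adjusted p = 0.0017) and only the groups compared (0.88, adjusted p = 0.0084). Between genotypes it passed the test under no treatment (adjusted p = 0.64 in LPS + LPS, 0.23 in Metformin + LPS and 0.95 in LPS), although in Metformin + LPS it did with library totals alone (1.26, adjusted p = 0.02). Its nearest genes in pattern were Tut4 (r = 0.99), Pnpt1 (r = 0.988) and Tor1aip2 (r = 0.988).

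Tnfsf9 and Tnfrsf9 encode the ligand (4-1BBL) and receptor (4-1BB, CD137) of a costimulatory pair. Tnfsf9 was at 59.3, 64.5 and 70.7 CPM in Zeb1∆M LPS + LPS and 64.3, 69.6 and 89.7 CPM in Zeb1WT LPS + LPS. In the LPS groups it was at 272, 200 and 234 CPM in Zeb1∆M and at 297, 346 and 534 CPM in Zeb1WT. The second dose left every library below every LPS library of its genotype. As log2 values, Tnfsf9 fell by 1.86 (SE 0.28, adjusted p = 6.5e-05) in Zeb1∆M and fell by 2.40 (SE 0.29, adjusted p = 4e-06) in Zeb1WT. After Metformin + LPS it was at 233, 209 and 357 CPM in Zeb1∆M, against 276, 285 and 542 CPM in Zeb1WT, overlapping LPS in both genotypes. Its genotype difference in LPS was -0.74 (SE 0.28, adjusted p = 0.23) without overlap, and that in Metformin + LPS was -0.46 (SE 0.28, adjusted p = 0.37), which turned to 0.20 with library totals alone. Its nearest genes were Ccnd2 (r = 0.981), Nfkbib (r = 0.974) and Ifi35 (r = 0.97).

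Tnfrsf9 was lower than in LPS after both other treatments. It was at 21.4, 24.5 and 21.7 CPM in Zeb1∆M LPS + LPS and 37.2, 18.7 and 27.3 CPM in Zeb1WT LPS + LPS. In Metformin + LPS it was at 25.5, 23 and 36.5 CPM in Zeb1∆M, against 49, 44.8 and 56.9 CPM in Zeb1WT. In LPS the level was 102, 73.2 and 70.9 CPM in Zeb1∆M, against 122, 101 and 70.5 CPM in Zeb1WT. All LPS libraries lay above the LPS + LPS and Metformin + LPS libraries. After the second dose Tnfrsf9 fell by 1.86 (SE 0.26, adjusted p = 2.2e-05) in Zeb1∆M and fell by 1.82 (SE 0.26, adjusted p = 2.2e-05) in Zeb1WT. After Metformin it fell by 1.53 (SE 0.25, adjusted p = 0.00042) in Zeb1∆M and fell by 0.96 (SE 0.25, adjusted p = 0.0091) in Zeb1WT, although without replicate 1 of Zeb1WT LPS the Zeb1WT value missed the threshold (-0.78, adjusted p = 0.055). In Metformin + LPS the genotypes did not overlap, at -0.82 (SE 0.25, adjusted p = 0.061), but with library totals alone they did. Without replicate 3 of Zeb1∆M Metformin + LPS, the highest of that group, the difference was called (-1.06, adjusted p = 0.036). Tnfrsf9 overlaps the gene Camta1 on the opposite strand, and Tnfsf9 the lincRNA Gm11110.

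Tnfsf15 encodes TL1A, a costimulatory ligand of the death receptor encoded by Tnfrsf25. It was a low-count gene outside Metformin + LPS, where it was at 8.16, 10.7 and 3.21 CPM in Zeb1∆M, against 18.5, 28.7 and 24.8 CPM in Zeb1WT. In LPS it was at 0.223, 0.102 and 1.17 CPM (3, 2 and 23 counts) in Zeb1∆M, against 3.54, 2.18 and 2.54 CPM (79, 43 and 42 counts) in Zeb1WT. In LPS + LPS it was at 0.671, 0.126 and 0.71 CPM in Zeb1∆M, against 1.02, 0.305 and 0.094 CPM in Zeb1WT. The Zeb1∆M libraries were below the Zeb1WT libraries in Metformin + LPS and LPS, and overlapped them in LPS + LPS. In the edgeR fit of all libraries the genotype difference nevertheless passed the test under no treatment, at -1.71 (SE 0.63, adjusted p = 0.12) in Metformin + LPS, -2.41 (SE 0.75, adjusted p = 0.14) in LPS and 0.11 (SE 0.78, adjusted p = 0.98) in LPS + LPS. Other fits called it lower, in LPS with DESeq2 (-2.47, adjusted p = 0.025) and with no filter on low counts (adjusted p = 7.7e-06), and in Metformin + LPS with only the groups compared (-1.72, adjusted p = 0.027) and with no filter (adjusted p = 0.00028).

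Against LPS, Tnfsf15 rose after Metformin by 3.82 (SE 0.76, adjusted p = 0.0016) in Zeb1∆M and by 3.12 (SE 0.67, adjusted p = 0.0026) in Zeb1WT on the log2 scale, and by 3.61 and 2.42 with library totals alone. After the second LPS dose it fell in Zeb1WT (-2.55, SE 0.73, adjusted p = 0.01), while in Zeb1∆M, already low in LPS, the value was -0.03 (SE 0.81, adjusted p = 0.98). That difference was not shown between genotypes, since the interaction was 2.52 (SE 1.1, adjusted p = 0.66). Its nearest genes were Rpl7a (r = 0.927), Rpl27a (r = 0.925), which encode ribosomal proteins, and the ribosomal RNA-like gene CT010467.1 (r = 0.921). The part of the ribosomal RNA-like counts in the Tnfsf15 result was not tested.

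Tnfsf13b encodes BAFF, a survival factor for B cells. It was the other low member, at 1.23 to 1.88 CPM in Zeb1∆M LPS + LPS, 0.911 to 2.22 CPM in Zeb1WT LPS + LPS, and 2.78 to 6.9 CPM in the remaining groups. After the second dose it fell by 1.70 (SE 0.39, adjusted p = 0.0025) in Zeb1∆M and fell by 1.42 (SE 0.39, adjusted p = 0.0075) in Zeb1WT, the Zeb1WT value being -0.77 (adjusted p = 0.14) with library totals alone. Genotype and Metformin differences did not pass the test, with TMM-scaled log2 fold changes between -0.11 and 0.52. Tnfsf13b overlaps Gm44789 on the opposite strand. Its nearest genes were Ephx1 (r = 0.933), Gpatch1 (r = 0.929) and Wdr43 (r = 0.913).

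Per kilobase of exon, the members differed widely in level within a group. In Zeb1WT LPS, Tnfsf9 was at 304 and Tnfrsf1b at 288 CPM per kilobase, Tnfrsf1a at 78.3 and Tnf at 73.2, Tnfrsf9 at 35.9 and Tnfsf10 at 14.4, and Tnfsf15 at 0.822 and Tnfsf13b at 0.562. In Zeb1∆M LPS + LPS, Tnfrsf1b at 208 CPM per kilobase stood above Tnfsf9 at 50.2, and Tnfsf10 was at 0.177.

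The genotype comparison asks what differed between Zeb1∆M and Zeb1WT macrophages under each treatment. Only Zeb1∆M mice carried LysM-Cre, so loss of Zeb1 and presence of the recombinase cannot be told apart. In LPS + LPS, 1 of the 8 members was called (Tnf), against 0.677% of all tested genes. With only the LPS + LPS groups fitted, 0 of 12390 genes were called. In Metformin + LPS, 2 of 8 were called, both lower in Zeb1∆M (Tnf and Tnfrsf1b), against 5.87% of all genes and 4.61% called lower. In LPS, 0 of 8 were called by edgeR, against 1.15% of all genes (0.937% called lower). An unadjusted p under 0.05 was reached by 4 of 8, against 1844 of 13443 genes. DESeq2 called 2 of 8 (Tnf and Tnfsf15), against 3.76% of all genes. Libraries of the genotypes did not overlap for 4 of 8 members in LPS, all lower in Zeb1∆M (Tnf, Tnfsf9, Tnfsf15 and Tnfrsf1b), against 10.8% of all genes apart in that direction, and for 4 of 8 in Metformin + LPS (Tnf, Tnfsf15, Tnfrsf1b and Tnfrsf9), against 12.9%, but in Metformin + LPS with library totals alone 2 of 8 were lower (Tnfsf15 and Tnfrsf1b) and 3 higher (Tnfsf10, Tnfsf13b and Tnfrsf1a). In LPS + LPS this held for 1 of 8 (Tnf), against 8.79%. The median log2 fold change of the members was -0.25 in LPS + LPS, -0.63 in Metformin + LPS and -0.50 in LPS, beside -0.02, 0.03 and 0.01 over all tested genes. In Metformin + LPS with library totals alone, the member median was -0.006 beside 0.60 over all genes, and the 2 members called were 1 higher (Tnfsf10) and 1 lower (Tnfrsf1b).

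**Figure D3:**
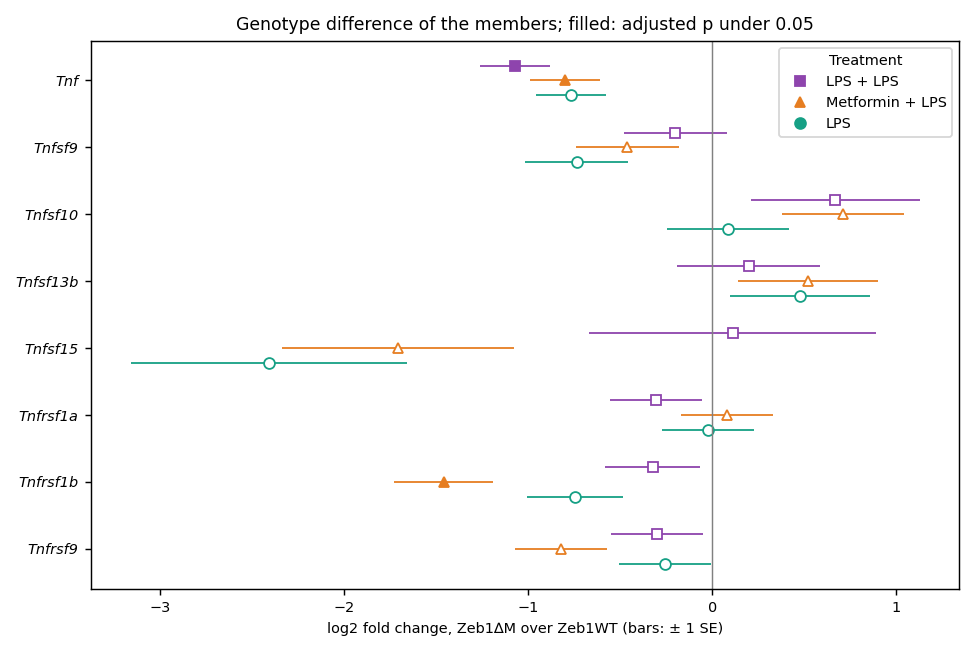
Log2 fold change of Zeb1∆M over Zeb1WT (horizontal axis, bars ± 1 SE) for the 8 genes in LPS + LPS, Metformin + LPS and LPS on TMM scaling, with filled symbols for an adjusted p under 0.05. Tnf lay between -1.07 and -0.77 in all 3 treatments, and with library totals alone its Metformin + LPS value was -0.21.

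No member passed the test of a genotype by treatment interaction in the edgeR fit of filtered genes. With no filter, Tnfsf15 did for the second LPS dose (2.54, adjusted p = 0.013), against 0.861% of all genes. For the second LPS dose, 0 of 13443 genes did (939 at an unadjusted p under 0.05, and 74 by DESeq2), with 1 of 8 members (Tnfsf15) at an unadjusted p under 0.05. For Metformin, 0.156% of genes did (1832 at an unadjusted p under 0.05, and 300 by DESeq2), with 0 of 8 members at an unadjusted p under 0.05. DESeq2 called 0 members in either.

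On TMM scaling, markers of other cells moved with genotype. Summed over 15 neutrophil markers, libraries were at 646 to 761 CPM in Zeb1∆M LPS against 798 to 1120 CPM in Zeb1WT LPS, and 4 of 13 tested markers were called lower. In Metformin + LPS the sum was 428 to 508 CPM in Zeb1∆M against 526 to 617 CPM in Zeb1WT, with 7 of 13 lower, and Ly6g and Ngp had 0 counts in every Zeb1∆M library. TMM raised the Zeb1WT Metformin + LPS libraries (factors 0.4454 to 0.7079) more than the Zeb1∆M ones (0.8434 to 0.8781). Without that scaling, a separation of these neutrophil sums was not shown. In LPS + LPS the sums overlapped, at 919 to 1620 CPM in Zeb1∆M against 1080 to 4360 CPM in Zeb1WT. In LPS and Metformin + LPS, much of each neutrophil sum was Csf3r, which macrophages also express. Its mean was 445 CPM in Zeb1∆M Metformin + LPS against 455 CPM in Zeb1WT Metformin + LPS, and 593 against 498 CPM in LPS. In LPS + LPS, Csf3r made up 420 CPM of a mean sum of 1280 CPM in Zeb1∆M, and 455 CPM of 2940 CPM in Zeb1WT. The 12 B-cell markers summed to 102 to 159 CPM in Zeb1∆M LPS against 430 to 659 CPM in Zeb1WT LPS (5 of 11 tested lower), to 28.6 to 38.2 CPM against 105 to 183 CPM in Metformin + LPS (7 of 11 lower), and to 123 to 244 CPM against 127 to 185 CPM in LPS + LPS. The 6 markers of monocytes and small peritoneal macrophages summed to 113 to 336 CPM in Zeb1∆M LPS against 307 to 437 CPM in Zeb1WT LPS, and to 160 to 236 CPM against 608 to 1160 CPM in Metformin + LPS, with 2 and 4 of 6 called lower. In LPS + LPS, other lists were apart between genotypes: 8 markers of large peritoneal macrophages summed to 2550 to 3600 CPM in Zeb1∆M against 1020 to 1080 CPM in Zeb1WT (4 of 8 called higher), and 7 eosinophil markers to 13.5 to 27.2 CPM against 46.3 to 325 CPM (0 of 5 tested called, Epx at 0). Eosinophil markers were also apart in Metformin + LPS, at 4.05 to 6.28 CPM in Zeb1∆M against 50.4 to 78.5 CPM in Zeb1WT (3 of 5 called lower). Over all genes, 1.15%, 5.87% and 0.677% were called between genotypes in LPS, Metformin + LPS and LPS + LPS. The part of these lists in the results was not tested. Fewer cells of a type and less RNA per cell cannot be told apart in these bulk samples. The macrophage markers Adgre1, Itgam, Csf1r and Cd68 had group means of 411 CPM or more in all groups, whereas Mertk, on the same list, had group means of 19.7 to 66.2 CPM. The sum of all 6 macrophage markers was nevertheless lower in Zeb1∆M, at 17900 to 24900 CPM against 43000 to 103000 CPM in Zeb1WT in Metformin + LPS, and at 26600 to 42000 CPM against 43700 to 56900 CPM in LPS, while 12200 to 16000 CPM and 15000 to 24200 CPM in LPS + LPS overlapped (1, 0 and 0 of 6 called lower). Most of this sum was Lyz2, the gene at which LysM-Cre is inserted, with a mean of 13400 CPM in Zeb1∆M against 67300 CPM in Zeb1WT in Metformin + LPS.

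Within the family and its pathway, genes other than the members were described from 5 lists. Of 18 ligand and 28 receptor genes, 11 and 20 were tested, and the others had at most 16 and 21 counts in any library. Between genotypes, 0 of 6 other tested ligands were called under any treatment. Of 17 other tested receptors, 3 were lower in Zeb1∆M in LPS, namely Tnfrsf13b (TACI, -1.44, adjusted p = 0.0027), Tnfrsf8 (CD30, -1.41, adjusted p = 0.01) and Tnfrsf13c (the BAFF receptor, -1.95, adjusted p = 0.049). In Metformin + LPS these 3 were lower as well (-1.51, -1.37 and -3.22), with Relt (-2.74, adjusted p = 0.0059), and in LPS + LPS 0 of 17 were called. Over all genes, 0.937% were called lower in LPS, 4.61% in Metformin + LPS and 0.216% in LPS + LPS. With library totals alone, Tnfrsf13c in LPS (adjusted p = 0.12) and Tnfrsf8 in Metformin + LPS (adjusted p = 0.058) missed the threshold. Tnfrsf13b and Tnfrsf13c are best known from B cells, whose markers moved the same way. Over all tested receptors, members included, the median was -0.61 in LPS, -0.32 in LPS + LPS and -0.40 in Metformin + LPS, the last of which was 0.19 with library totals alone, where the median gene was 0.60.

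In the signalling list of 27 genes, Traf1, an adaptor induced by NF-κB, was lower in Zeb1∆M in LPS (-1.23, adjusted p = 0.025) and Metformin + LPS (-1.61, adjusted p = 0.0022). Map3k5 (ASK1, a stress kinase) was lower in LPS (-1.14, adjusted p = 0.039), and Birc2 (cIAP1, a ubiquitin ligase of the receptor complex) was higher in LPS + LPS (0.82, adjusted p = 0.023), both of which missed the threshold with library totals alone (adjusted p = 0.15 and 0.078). Among 13 brakes of the pathway, Nfkbia, which encodes the NF-κB inhibitor IκBα, was lower in Metformin + LPS (-1.19, adjusted p = 0.017), but -0.51 (adjusted p = 0.066) with library totals alone. Of 8 genes for shedding and processing of TNF, 0 were called under any treatment on TMM scaling. In Metformin + LPS with library totals in place of TMM, the counts were 10 higher and 1 lower of 27 signalling genes, 4 higher and 0 lower of 13 brakes and 1 higher and 0 lower of 8 shedding genes. There the median gene was 0.60 and 26.7% of all genes were called. Median-of-ratios scaling called 2 of 13 brakes lower in Metformin + LPS.

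The second LPS dose was compared with the single dose to describe the state reached after repeated endotoxin. In Zeb1∆M, 5 of 8 members were called, all lower (Tnfsf9, Tnfsf10, Tnfsf13b, Tnfrsf1a and Tnfrsf9), against 32.7% of all genes called and 16.9% called lower. In Zeb1WT, 6 of 8 were called, all lower (the same 5 and Tnfsf15), against 36.6% and 18%. On TMM scaling, the libraries of each called member lay wholly below the LPS libraries of that genotype, for 5 of 8 in Zeb1∆M against 24.8% of all genes, and for 6 of 8 in Zeb1WT against 22.6%. With library totals alone, 5 of 8 lay below and 1 above (Tnfrsf1b) in Zeb1∆M. In Zeb1WT, 4 of 8 lay below and 1 above (Tnf), with Tnfsf13b and Tnfrsf1a overlapping. Tnfrsf1a fell by 1.26 (SE 0.25, adjusted p = 9e-04) in Zeb1∆M and fell by 0.98 (SE 0.25, adjusted p = 0.0052) in Zeb1WT, the Zeb1WT value being -0.32 (adjusted p = 0.32) with library totals alone. Tnf and Tnfrsf1b were not called in either genotype. Tnf was -0.32 (SE 0.19, adjusted p = 0.2) in Zeb1∆M and -0.01 (SE 0.19, adjusted p = 0.96) in Zeb1WT, and with library totals alone both turned positive, at 0.26 and 0.64 (adjusted p = 0.35 and 0.019), below the median gene at 0.59 and 0.73. Tnfrsf1b was 0.28 in Zeb1∆M and -0.14 in Zeb1WT, and 0.87 (adjusted p = 0.0051) and 0.52 (adjusted p = 0.066) with library totals alone. Relative to the median gene, the members kept values close to those on TMM scaling, such as -0.08 for Tnf and -1.05 for Tnfrsf1a in Zeb1WT. Taking values relative to the median gene centres them much as TMM does, so this closeness was built in and is no separate check.

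Most brakes of the pathway were lower after the second dose. In both genotypes 8 of 13 fell and 0 rose, with a list median of -0.73 in Zeb1∆M and -1.01 in Zeb1WT. Over all genes, 32.7% (16.9% lower) were called in Zeb1∆M and 36.6% (18% lower) in Zeb1WT. Tnfaip3, which encodes the ubiquitin-editing enzyme A20, was at a mean of 577 CPM in Zeb1∆M LPS + LPS against 2070 CPM in Zeb1∆M LPS (-1.85, adjusted p = 2.1e-05), and at 519 CPM in Zeb1WT LPS + LPS against 2490 CPM in Zeb1WT LPS (-2.26, adjusted p = 2e-06). Zfp36, which encodes tristetraprolin, a protein that destabilises Tnf mRNA, fell by 2.26 in Zeb1∆M and fell by 2.05 in Zeb1WT, and Tnip2 and Tnip3, A20-binding proteins, fell as well. These 4 genes also fell with library totals alone, where however 5 of 13 were lower in each genotype and 1 (Zeb1∆M) and 4 (Zeb1WT) were higher. Of 27 signalling genes, 11 were lower and 3 higher in Zeb1∆M, and 13 lower and 4 higher in Zeb1WT, led by Birc2, Birc3, Casp8 and Mlkl, the executor of necroptosis, which fell by 2.81 in Zeb1∆M and fell by 3.31 in Zeb1WT. With library totals alone the signalling counts were 6 lower and 7 higher in Zeb1∆M, and 7 lower and 8 higher in Zeb1WT.

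Of 8 shedding genes, Adam17, which encodes the protease that releases soluble TNF, rose by 0.83 (adjusted p = 0.0021) in Zeb1∆M and by 0.90 (adjusted p = 0.00096) in Zeb1WT, as did Adam10 and Frmd8, while Sppl2a, an intramembrane protease that cuts the remaining TNF stalk, fell (-1.91 in Zeb1∆M and -2.08 in Zeb1WT). Cd40, a receptor for T-cell help, fell by 3.02 in Zeb1∆M and fell by 2.62 in Zeb1WT. Among the other ligands Tnfsf14 (LIGHT) was lower in Zeb1∆M (-1.88, adjusted p = 0.0012), and in Zeb1WT Tnfsf8 had 0 counts in all 3 LPS + LPS libraries against 77 counts in Zeb1WT LPS, at least 37.5-fold lower with a floor of 3 counts over the group. Tnfsf12 (2.84, adjusted p = 0.0094) and Ltb (2.04, adjusted p = 0.012) were higher in Zeb1WT. Beside these changes, the summed markers of large peritoneal macrophages were at 2550 to 3600 CPM in Zeb1∆M LPS + LPS against 15400 to 16600 CPM in Zeb1∆M LPS, and at 1020 to 1080 CPM in Zeb1WT LPS + LPS against 11700 to 15400 CPM in Zeb1WT LPS, with 6 and 7 of 8 called lower. Of the neutrophil markers, 7 and 6 of 13 were called higher, and of the B-cell markers 1 and 9 of 11 were called lower. Over all genes, 32.7% and 36.6% were called in either direction. The 6 dendritic-cell markers summed to 6.2 to 9.84 CPM in Zeb1∆M LPS + LPS against 284 to 1050 CPM in Zeb1∆M LPS, and to 7.11 to 19.4 CPM against 471 to 825 CPM in Zeb1WT, mostly Cd209a in the LPS groups. The 10 mast-cell and basophil markers, nearly all Hdc, summed to 196 to 382 CPM against 1180 to 2430 CPM in Zeb1∆M and to 97.6 to 382 CPM against 1410 to 1660 CPM in Zeb1WT. The part of these lists in the results was not tested.

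**Figure D4:**
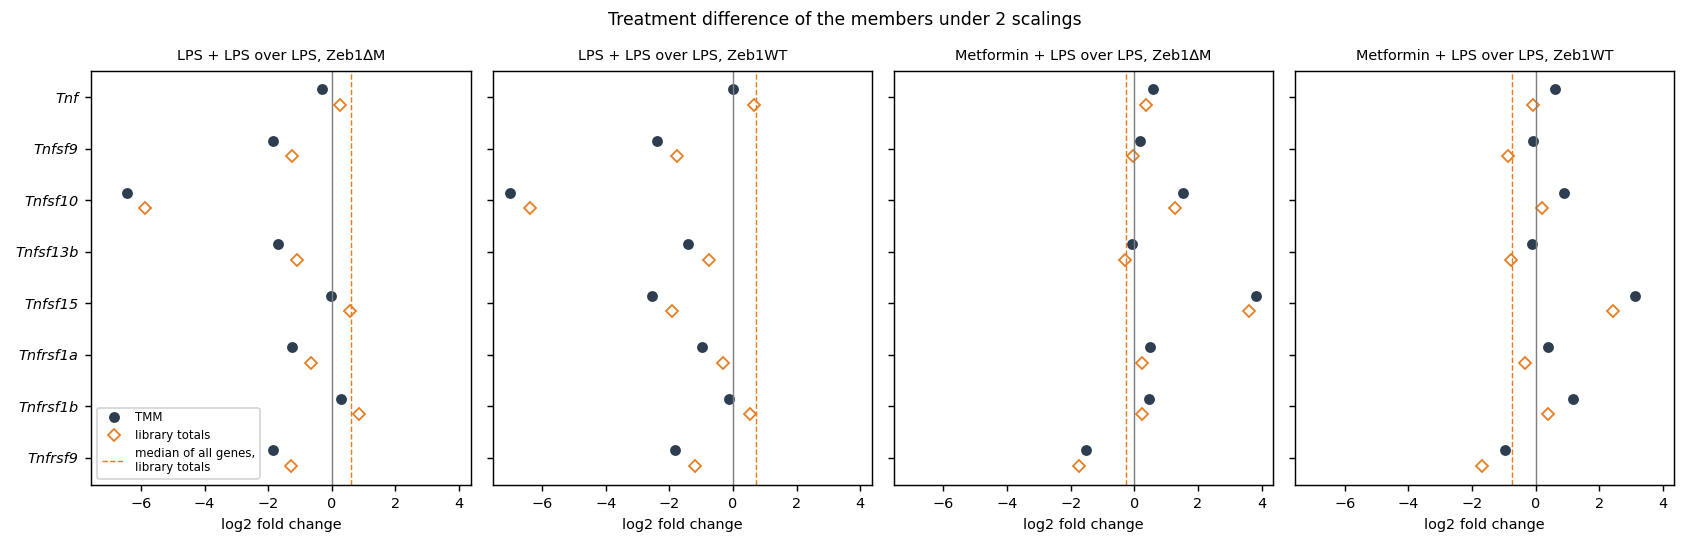
Log2 fold change (horizontal axis) of LPS + LPS over LPS and of Metformin + LPS over LPS in each genotype for the 8 genes, with TMM scaling (filled circles) and with library totals alone (open diamonds), and a dashed line at the median of all genes for library totals. Tnfsf10 lay between -7.02 and -5.87 after the second dose on either scaling, whereas Tnf after Metformin in Zeb1WT was 0.62 with TMM and -0.10 with library totals.

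The comparison of Metformin + LPS with LPS asks what the pretreatment changed in the response to a single dose. In Zeb1∆M, 3 of 8 members rose (Tnf, Tnfsf10 and Tnfsf15) and 1 fell (Tnfrsf9), against 12.6% and 13.6% of all genes, or 26.2% in either direction. In Zeb1WT, 3 of 8 rose (Tnf, Tnfsf15 and Tnfrsf1b) and 1 fell (Tnfrsf9), against 13% and 12.3%, or 25.2%. Libraries lay wholly above LPS for 5 of 8 members in Zeb1∆M (those called higher, Tnfrsf1a and Tnfrsf1b), against 20.5% of all genes, and for 4 of 8 in Zeb1WT (those called higher and Tnfsf10), against 19.5%. They lay wholly below for Tnfrsf9, 1 of 8 in each genotype, against 21.9% in Zeb1∆M and 21.6% in Zeb1WT. With library totals alone, 3 of 8 lay above and 1 below in Zeb1∆M, and 1 above (Tnfsf15) and 2 below (Tnfsf9 and Tnfrsf9) in Zeb1WT. Tnf was 0.59 (SE 0.19, adjusted p = 0.028) in Zeb1∆M and 0.62 (SE 0.19, adjusted p = 0.021) in Zeb1WT, but with library totals alone it was 0.36 (adjusted p = 0.24) and -0.10 (adjusted p = 0.74), so its direction in Zeb1WT turned with the scaling. Tnfrsf1b rose in Zeb1WT by 1.17 (SE 0.26, adjusted p = 0.0036), which was 0.38 (adjusted p = 0.18) with library totals alone, and in Zeb1∆M it was 0.46 (SE 0.26, adjusted p = 0.21). Relative to the median gene under library totals, a centring much like TMM and no separate check, the Zeb1WT values were 0.64 for Tnf and 1.12 for Tnfrsf1b. The rise of Tnfsf15 and the fall of Tnfrsf9 passed the test under both scalings in both genotypes. Tnfsf9 fell only with library totals, in Zeb1WT (-0.88, adjusted p = 0.0085), where the median gene was -0.74.

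The Tnf call after Metformin was lost in Zeb1∆M without replicate 1 of Zeb1∆M LPS (0.45, adjusted p = 0.13), replicate 1 of Zeb1∆M Metformin + LPS (0.63, adjusted p = 0.054) or its replicate 3 (0.54, adjusted p = 0.069). In Zeb1WT it was lost without replicate 1 (0.58, adjusted p = 0.077) or 3 (0.56, adjusted p = 0.08) of Zeb1WT LPS, or replicate 3 of Zeb1WT Metformin + LPS (0.57, adjusted p = 0.062). The values themselves moved little.

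After Metformin, Tnfsf13 (APRIL, a relative of BAFF) rose by 2.11 (adjusted p = 3.1e-05) in Zeb1∆M and by 1.93 (adjusted p = 3.5e-05) in Zeb1WT, and Tnfsf14 and Ltb were lower in both genotypes, under both scalings. Of the other receptors, 2 were higher and 5 lower of 17 in Zeb1∆M, and 2 higher and 3 lower in Zeb1WT. Over all genes, 26.2% were called in Zeb1∆M and 25.2% in Zeb1WT. Relt was lower in both (-4.97 in Zeb1∆M and -1.89 in Zeb1WT), as was Tnfrsf13b (-1.24 and -1.16). Tnip3 rose by 1.42 in Zeb1∆M and by 1.66 in Zeb1WT, also with library totals alone (1.20 and 0.86). Of the signalling genes, 8 rose and 4 fell in Zeb1∆M and 7 rose and 3 fell in Zeb1WT, Cflar (the caspase-8 inhibitor cFLIP), Tab2 and Map3k5 among those higher in both, but with library totals alone 5 rose and 4 fell in Zeb1∆M and 0 rose and 12 fell in Zeb1WT. Library totals called 24.4% of all genes in Zeb1∆M and 41.6% in Zeb1WT. Adam17 and Adam10 were called higher in both genotypes with TMM and in neither with library totals alone. These pathway counts in Zeb1WT thus depended on the scaling. Beside them, 9 of 13 neutrophil markers were lower in Zeb1∆M and 7 of 13 in Zeb1WT, 6 and 7 of 11 B-cell markers were lower, and 3 and 4 of 6 monocyte markers were higher. Of 6 macrophage markers, 4 were called higher and 1 lower in Zeb1∆M, and 5 higher and 0 lower in Zeb1WT. Of 8 large peritoneal macrophage markers, 3 were higher and 1 lower in Zeb1∆M, and 2 higher and 0 lower in Zeb1WT. Dendritic-cell markers were lower for 2 and 3 of 5 tested, and eosinophil markers for 3 and 0 of 5. These calls were on TMM scaling, beside 26.2% and 25.2% of all genes called, and the part of the lists in the results was not tested.

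**Figure D5:**
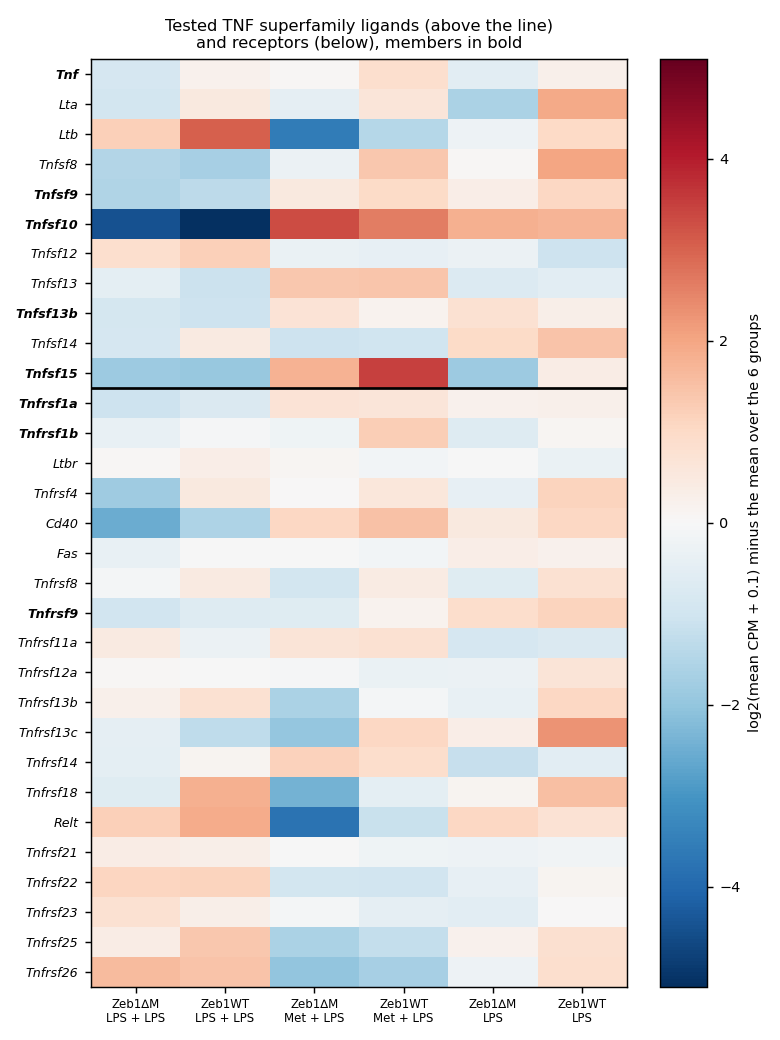
Mean level of each tested TNF superfamily gene in each group, as log2(mean CPM + 0.1) minus the gene's mean over the 6 groups (red higher, blue lower), ligands above the line and receptors below, with the 8 genes described here in bold. Tnfsf10 was at -4.46 and -5.08 in the Zeb1∆M and Zeb1WT LPS + LPS groups, and Relt at -3.75 in Zeb1∆M Metformin + LPS.

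Across the 18 libraries the members did not form a single pattern. Tnfsf10 was closest to Tnfsf9 (r = 0.906), Tnfrsf1a (r = 0.889) and Tnfsf13b (r = 0.871), all lower in LPS + LPS, whereas Tnf was closest to Tnfrsf1b (r = 0.824) and Tnfsf15 (r = 0.743). Tnfsf13b and Tnfrsf1b had an r of -0.07. The nearest genes to Tnfrsf1b were Hcls1 (r = 0.924), Mfsd1 (r = 0.921) and Actg1 (r = 0.907), those to Tnfrsf1a were Taok3 (r = 0.979), Sbno2 (r = 0.964) and Smndc1 (r = 0.963), and those to Tnfrsf9 were Apoc2 (r = 0.943), Strap (r = 0.92) and Serbp1 (r = 0.906). These correlations describe libraries that share treatment, scaling and depth.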

How the data were processed

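Peritoneal macrophage RNA was prepared with Trizol and a stranded mRNA kit and sequenced in 18 libraries. The authors deposited gene counts in whole numbers, not normalized, and their notes name STAR, RSEM and DESeq2 and the mouse build GRCm38; roles, versions, rounding and the use of strand are not given in the sources used here. All 18 libraries, labelled as 3 replicates in each of 6 groups, entered a single edgeR 4.0.16 fit (R 4.3.3, limma 3.58.1): genes kept by filterByExpr, TMM scaling, quasi-likelihood test, Benjamini-Hochberg adjustment over 13443 genes, and a call at an adjusted p under 0.05. The SE was the log2 fold change over the square root of F. Alternatives were DESeq2 1.42.0, its size factors, fits with no filter, of the compared groups only, with the replicate number as a block or without each library, and, chosen after seeing the data, library totals alone. No pair of libraries of the same group agreed within sampling noise, and pairs across groups were not compared. The test code was checked on simulated counts in which few genes changed, so that check did not cover the scaling of comparisons where many genes changed. Beside the members, the genes named were Zeb1, up to 4 called genes per pathway list and comparison with the smallest adjusted p, and the 3 genes nearest to each member in log2 CPM (prior count 2, mean log2 CPM at least 3). Members and lists were chosen with earlier results of these data known. Counts limit the precision of Tnfsf15, Tnfsf13b and, in LPS + LPS, Tnfsf10.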

Additional observations from a re-analysis of the deposited data

How the results depend on the processing

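The members called between genotypes in LPS (0) became 1 with median-of-ratios scaling (Tnf, adjusted p = 0.035), 2 with DESeq2 and 3 with no filter on low counts. These settings called 1.29%, 3.76% and 2.69% of all genes, against 1.15% in the main fit. In Metformin + LPS, 2 became 5 with no filter (1 higher, 4 lower), where 4.43% of all genes were called. In LPS + LPS, 1 became 0 when only the groups compared were fitted (Tnf -1.07, adjusted p = 0.18). The interaction with the second LPS dose went to 1 with no filter (Tnfsf15, 2.54, adjusted p = 0.013), against 0.861% of all genes. With library totals alone, 2 member values reversed, Tnf after the second dose in Zeb1WT (0.64) and after Metformin in Zeb1WT (-0.10), 5 lost their call and 3 gained it. A further 8 member values changed sign with no call on either scaling. Leaving out each library in turn gave 0 to 1 members called between genotypes in LPS + LPS, 1 to 3 in Metformin + LPS and 0 to 0 in LPS, 3 to 4 after Metformin in Zeb1∆M and 2 to 4 in Zeb1WT, and 5 to 5 and 6 to 6 after the second dose; of 528 such member values, 12 lost and 1 gained a call. Libraries with the same replicate number shared little deviation from their group means (correlations -0.0894 to 0.137, 1 pair over 0.1). With 3 libraries in each group this cannot exclude pairing. With the replicate block all 72 member values kept their call, with 5 members called after the second dose in Zeb1∆M. Over all genes, the calls in LPS + LPS, Metformin + LPS and LPS between genotypes were 91, 789 and 154. Fits of only the groups compared called 0, 505 and 199, and DESeq2 called 382, 1371 and 505. The counts were 640, 1213 and 738 with no filter, and 70, 3594 (91% higher, against 21.4%) and 106 with library totals alone. Leaving out each library in turn moved the calls of the main fit to between 29 and 397, 321 and 965, and 55 and 232, with 397 without replicate 1 of Zeb1WT LPS + LPS. After the second dose, 82.2% and 81.9% of calls were higher in Zeb1∆M and Zeb1WT with library totals, against 48.3% and 50.8%, and after Metformin 28.4% and 8.32%, against 48.1% and 51.4%. The cause of these changes was not tested.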
